A study of Mus musculus with 54 samples.

Results

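The genes described here write, copy, erase or read methylation of cytosine at CpG sites in DNA. They are 10 of the 20661 protein-coding genes on mouse autosomes: Dnmt1, Uhrf1, Dnmt3a, Dnmt3b, Dnmt3l, Tet1, Tet2, Tet3, Tdg and Cxxc1. They were chosen by name and not by a rule on measured values, though earlier results of these data were known. Each was covered by every 250 bp window that overlapped the gene or the 2000 bp on either side of it in the mouse build mm10, which gave 2291 windows out of 10535096. A 5′ end was the set of windows from 1000 bp before to 500 bp after an annotated transcription start, and the remaining windows of the gene and its flanks made up its body. The 10 genes had 17 starts, which took 104 windows, and the bodies took the other 2187. The start of Cxxc1 was not annotated and was taken at its gene end with the higher CpG density.

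DNA methylation in mammals is placed and kept by DNA methyltransferases. DNMT1 copies the pattern to the new strand after replication, and UHRF1 brings it to the hemimethylated CpG sites that replication leaves. DNMT3A and DNMT3B methylate unmodified sites, and DNMT3L has no catalytic activity of its own but stimulates both, above all in germ cells. The TET dioxygenases oxidise 5-methylcytosine step by step, and the glycosylase TDG cuts out the most oxidised forms so that repair puts back a plain cytosine. CXXC1, also called CFP1, is neither a writer nor an eraser: it binds unmethylated CpG and belongs to the SET1 histone H3 lysine 4 methyltransferase complex. The genes of this machinery can themselves be methylated, and in many cells CpG-rich promoters stay unmethylated while gene bodies carry methylation.

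The samples were intestinal adenomas and normal intestinal mucosa of mice aged 15 to 19 weeks, with or without the Apc Min allele, a mutation of the tumor suppressor Apc that gives rise to intestinal adenomas. Methylated DNA was pulled down with an antibody to 5-methylcytosine and sequenced, a method known as MeDIP-seq. The strains were C57BL/6 (B6), the F1 hybrid C57BL/6xPWD (B6xPWD), the chromosome substitution strain in which C57BL/6 carries chromosome 5 of PWD (C5), the F1 of C57BL/6 and that strain (C5F1), an F1 with PWD chromosomes 1 and 5 (C1_5F1), and PWD/Ph (PWD), a wild-derived inbred strain. Apc Min mice gave 16 adenoma libraries, of which 5 were B6, 3 each were B6xPWD, C5 and C5F1, and 2 were C1_5F1. Normal mucosa of Apc Min mice gave 14 libraries, with 3 for each of B6, B6xPWD, C5 and C5F1 and 2 for C1_5F1. Mucosa of wild type mice gave 16 libraries, with 4 for B6 and 3 each for B6xPWD, C5, C5F1 and PWD. PWD was sampled only as wild type mucosa, and C1_5F1 only in Apc Min mice. None of the 10 genes lies on chromosome 1 or 5.

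The 46 MeDIP libraries held 8358806 to 27842607 counts, and the 1 input library, sequenced without pull-down, held 7533091. CpG-dense windows took a share of the counts that ranged from 4.03% to 7.74%, and it was 4.03% to 5.94% in the libraries whose label number begins with 16. The labels do not say whether libraries of a group came from different mice, so the p-values measure the spread between libraries. Summed capture at the 5′ ends of epithelial, immune and stromal marker genes overlapped between adenomas, Apc Min normal mucosa and wild type mucosa. For the 9 epithelial markers the ranges were 3.71 to 8.19, 3.78 to 6.61 and 3.28 to 6.90 CPM, counts scaled to the size of the library. These sums are of captured DNA, not of expression, so they do not identify the cells. A change of methylation within cells and a change in the mix of cells cannot be told apart in such bulk samples. The library size is the one after TMM scaling, and CPM measures captured DNA, which grows with both the methylation and the number of CpG sites, not percent methylation.

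The promoter sequences below are shown because the CpG content of these starts sets out the contrast that runs through the capture values. They come from RefSeq for build GRCm38.p6, and they were available for 16 of the 17 starts, in 9 of the 10 genes. Each runs 5′ to 3′ from 250 bases before the start to 50 bases after it, and capitals mark CpG sites. They are the reference sequence, so they do not show where PWD differs from it.
Dnmt1 start 1, chr9:20959839-20960138, minus strand: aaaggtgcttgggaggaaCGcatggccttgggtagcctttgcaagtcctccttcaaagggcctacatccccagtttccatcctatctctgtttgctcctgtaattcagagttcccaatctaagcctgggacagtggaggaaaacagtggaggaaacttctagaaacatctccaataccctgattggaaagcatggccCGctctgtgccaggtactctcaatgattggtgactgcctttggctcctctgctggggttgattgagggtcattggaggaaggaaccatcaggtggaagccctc
Dnmt1 start 3, chr9:20952574-20952873, minus strand: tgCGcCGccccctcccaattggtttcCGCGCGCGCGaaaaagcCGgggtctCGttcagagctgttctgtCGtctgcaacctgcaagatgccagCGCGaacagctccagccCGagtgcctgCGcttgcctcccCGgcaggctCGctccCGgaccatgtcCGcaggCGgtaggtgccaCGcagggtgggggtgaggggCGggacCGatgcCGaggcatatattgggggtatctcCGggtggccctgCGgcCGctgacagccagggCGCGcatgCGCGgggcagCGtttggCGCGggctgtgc
Dnmt3l start 2, chr10:78049592-78049891, plus strand: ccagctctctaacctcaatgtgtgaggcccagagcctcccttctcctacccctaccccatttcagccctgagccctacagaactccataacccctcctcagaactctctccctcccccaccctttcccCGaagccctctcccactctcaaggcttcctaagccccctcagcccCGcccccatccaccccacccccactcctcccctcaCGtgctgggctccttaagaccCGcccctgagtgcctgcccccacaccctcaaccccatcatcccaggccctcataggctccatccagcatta
Tet2 start 1, chr3:133544341-133544640, minus strand: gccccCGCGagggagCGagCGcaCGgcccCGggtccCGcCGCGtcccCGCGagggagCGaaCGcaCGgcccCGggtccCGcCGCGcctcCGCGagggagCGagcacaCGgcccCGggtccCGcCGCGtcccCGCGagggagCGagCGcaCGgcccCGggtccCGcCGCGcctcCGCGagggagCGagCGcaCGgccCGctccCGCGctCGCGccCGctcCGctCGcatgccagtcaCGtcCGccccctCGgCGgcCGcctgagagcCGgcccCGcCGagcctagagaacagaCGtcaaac
Tet3 start 1, chr6:83441629-83441928, minus strand: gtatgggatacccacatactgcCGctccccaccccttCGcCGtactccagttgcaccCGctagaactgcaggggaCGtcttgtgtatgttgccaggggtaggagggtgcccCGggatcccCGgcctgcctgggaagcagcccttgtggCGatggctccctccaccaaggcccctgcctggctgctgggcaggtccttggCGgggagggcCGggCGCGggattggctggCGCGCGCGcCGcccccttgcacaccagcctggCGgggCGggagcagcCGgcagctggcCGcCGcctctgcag
Tdg start 1, chr10:82629588-82629887, plus strand: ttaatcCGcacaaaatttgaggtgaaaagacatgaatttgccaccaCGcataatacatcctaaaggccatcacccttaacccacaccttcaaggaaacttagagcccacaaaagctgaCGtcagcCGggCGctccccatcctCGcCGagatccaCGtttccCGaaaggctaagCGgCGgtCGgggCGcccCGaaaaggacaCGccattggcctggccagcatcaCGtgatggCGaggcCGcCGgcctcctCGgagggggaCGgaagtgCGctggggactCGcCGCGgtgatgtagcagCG

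Dnmt1 start 1 had 2 CpG sites in these 300 bases and Dnmt3l start 2 had 4, below the median of 7 over all 32851 promoters. The other 4 were CpG-rich, with 22 sites at Tet3, 26 at Tdg, 33 at Dnmt1 start 3 and 57 at Tet2, where 99.8% of promoters had fewer. The remaining 10 promoters held 3 (Dnmt3l start 3) to 47 (Dnmt3a start 2) sites. The letters GCGCA followed by their reverse complement TGCGC, a binding motif of NRF1 searched on both strands, occurred at Dnmt1 starts 2 and 3, which overlap, and in 0.971% of all promoters. The palindrome TGACGTCA, the cAMP response element, occurred at Tdg and in 1.79% of all promoters. Neither motif occurred in the other promoters of the set. Such matches describe letters in a window and not binding.

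In both genes of the maintenance pair, the starts differed in capture. Dnmt1 lies on the minus strand at chr9:20907206-20959888, and its 5′ end at start 1 held 2.22 ± 0.428 CPM (SD, n = 46), above 95.2% of the 24289 5′ ends of all genes. Start 3, farther into the gene, held 0.189 CPM, and start 2, which overlaps it, held 0.267 CPM. The somatic form of Dnmt1 is known to begin downstream of an oocyte-specific first exon, but the table of starts does not say which transcript each start belongs to. The capture at start 1 did not come from the start itself. It came mostly from the window at chr9:20960751-20961000, whose midpoint is at -987.5 bp, and which held 1.70 CPM.
Uhrf1, on the plus strand at chr17:56303337-56323486, held 0.475 CPM at start 1 and 0.115 CPM at start 2, where its promoter had 12 and 33 CpG sites. Dnmt1 starts 2 and 3 and Uhrf1 start 2 were thus below the median of all 5′ ends, 0.345 CPM. Uhrf1 start 1, whose 12 CpG sites also exceed the median of 7 over all promoters, was above it.

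Among the de novo enzymes, Dnmt3l stood apart from its catalytic relatives. Its 3 starts on chr10:78042287-78063622 held 2.04, 3.16 and 2.88 CPM, above 94.2%, 97.8% and 97.2% of all 5′ ends. Dnmt3l shares part of its windows with the neighbouring gene Aire, as Tdg does at its downstream end with Glt8d2 and Dnmt1, Dnmt3a, Tet1 and Tet3 do with noncoding genes. The method does not separate overlapping genes. Dnmt3a (chr12:3801559-3914443) held 0.213, 0.0737 and 0.306 CPM at its 3 starts, of which the third is the internal one, and Dnmt3b (chr2:153649411-153687730) held 0.646 CPM.

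The erasers were low at their listed starts, except for the internal start of Tet3. Tet1 (chr10:62804570-62887469), Tet2 (chr3:133463677-133545136) and Tdg (chr10:82629814-82650799) held 0.219, 0.146 and 0.179 CPM, and none of them had enough counts for the tests. Over the 5′ end of Tet1 the input library had 15 counts, or 1.99 CPM, so these bases were present in sequenced DNA. At Tet2 and Tdg it had only 3 and 4 counts, or 0.398 and 0.531 CPM. Both were below the input median of 0.796 CPM over all 5′ ends. Tet3 (chr6:83362373-83457208) held 0.980 CPM, above 81.5% of 5′ ends, at a start that lies inside the extent of the gene. The windows at the upstream limit of Tet3, chr6:83455751-83457250, had deposited CpG density scores of 22.9 to 44.3. They held only 0.00291 to 0.0124 CPM, and they were counted in the body because no start was listed there. No promoter entry was available for Cxxc1 (chr18:74216212-74221493), so its 5′ end was taken at the gene end with the denser CpG score. It held 0.497 CPM.

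**Figure D1:**
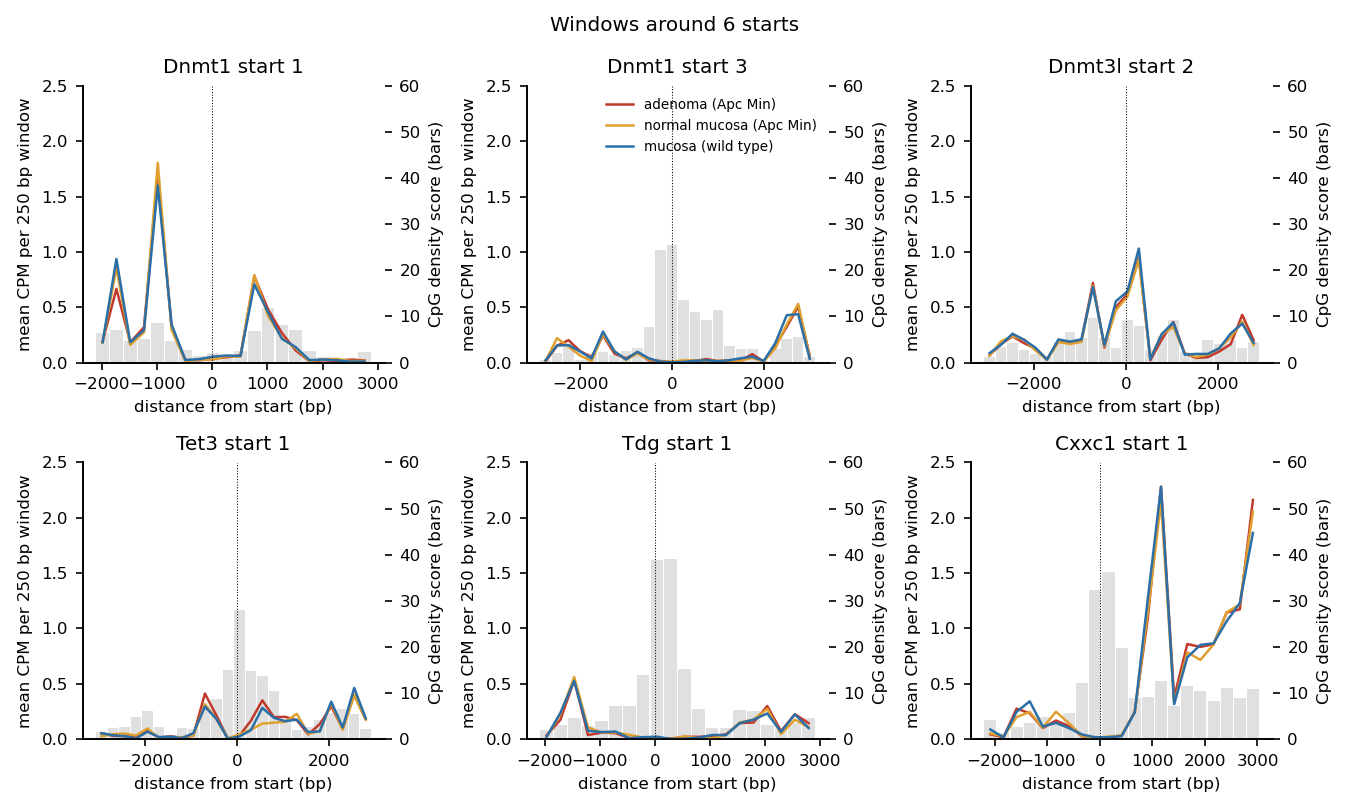
Mean captured DNA in CPM per 250 bp window (lines, left axis) for adenomas (red), Apc Min normal mucosa (orange) and wild type mucosa (blue) against distance from 6 starts in bp, with the deposited CpG density score of each window as grey bars (right axis). At Dnmt1 start 3, Tet3, Tdg and Cxxc1 the lines are near 0 where the bars are tall, and at Dnmt1 start 1 the capture peaks at -987.5 bp.

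Within the 5′ ends, the windows with the most CpG sites were captured least. Of the 43 windows in 5′ ends with a CpG density score of 10 or more, 41 held under 0.1 CPM, with a median of 0.0106 CPM. Windows of the same density inside the bodies held a median of 0.564 CPM, and 19 of 68 were under 0.1 CPM. Most of these 19 lay just beyond a 5′ end, within 1338.5 bp of a start, or at the upstream limit of Tet3. Those farther away were in Tet1, 21448.5 and 21698.5 bp from its start. Across the 16 promoters the number of CpG sites and the capture at the 5′ end ran in opposite directions (Spearman's rho -0.85 over 16 starts that partly overlap and share the same libraries, given as a description). Tet3 had the highest capture in a dense window of a 5′ end, 0.262 CPM at chr6:83441001-83441250, 553 bp after its start. The highest 5′ end window of any density was that of Dnmt1 at chr9:20960751-20961000, with 1.70 CPM. After Dnmt1, the gene with the highest such window was Dnmt3l, with 1.45 CPM at chr10:78055001-78055250. The highest ones of Tet3 (chr6:83442251-83442500, 0.341 CPM), Dnmt3b (chr2:153648751-153649000, 0.225 CPM), Uhrf1 (chr17:56302751-56303000, 0.211 CPM) and Cxxc1 (chr18:74215251-74215500, 0.184 CPM) lay upstream of the start. So did those of Dnmt3a (chr12:3805751-3806000, 0.143 CPM), Tet1 (chr10:62887501-62887750, 0.105 CPM), Tdg (chr10:82628751-82629000, 0.0604 CPM) and Tet2 (chr3:133545251-133545500, 0.0510 CPM).

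Over the bodies, 9 of the 10 genes held between 0.502 CPM per kb (Tet2) and 1.27 CPM per kb (Dnmt1), and Cxxc1 held 3.27 ± 0.552 CPM per kb (SD, n = 46). The Cxxc1 body was above 99.98% of the bodies of all genes, whose median was 0.515 CPM per kb, and it was the shortest of the 10, with 31 windows. Its input level was 0.634 CPM per kb from 37 counts, against a median of 0.469 over all bodies, so the height was not seen without pull-down. Cxxc1 thus had the most captured body of the set, and its highest window, chr18:74220751-74221000, held 2.62 CPM. The Cxxc1 body also had the highest mean CpG density score of the 10, 7.06 against 2.43 (Tet2) to 5.09 (Dnmt1). Capture grows with CpG sites, so its height is not a measure of methylation alone. Uhrf1 followed Dnmt1 with 0.993 CPM per kb. Tet3, Tet1, Dnmt3a, Tdg, Dnmt3l and Dnmt3b lay between 0.795 and 0.564 CPM per kb.
The highest body window of Tet1, chr10:62812751-62813000, had a CpG density score of 14.5 and 2.91 CPM, far from the start. That of Tet3, chr6:83368251-83368500, had a score of 16.3 and 2.28 CPM, also far from the start. In both genes, the dense CpG of these windows was captured at levels that dense CpG at the start did not reach. The highest window of Tet2, chr3:133513001-133513250, was of another kind, with a score of 1.37 and 2.77 CPM. For the other genes the highest body window ranged from 1.05 CPM in Dnmt3l (chr10:78057501-78057750) to 2.96 CPM in Dnmt1 (chr9:20927001-20927250). Between these were Dnmt3b (chr2:153659001-153659250, 1.28 CPM), Dnmt3a (chr12:3873251-3873500, 1.39 CPM), Uhrf1 (chr17:56312001-56312250, 1.40 CPM) and Tdg (chr10:82647251-82647500, 1.78 CPM).

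**Figure D2:**
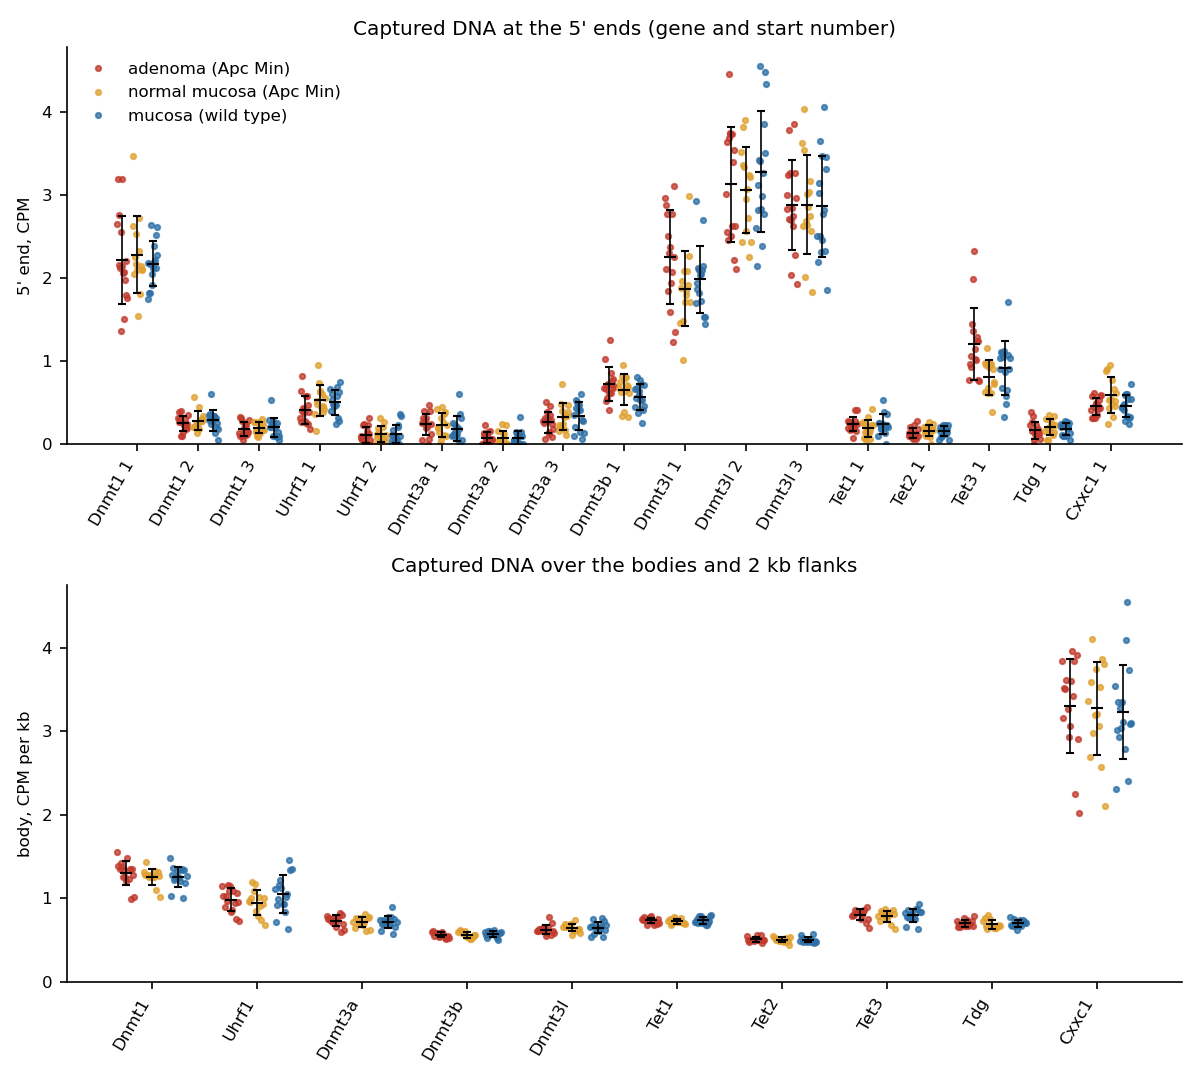
Captured DNA in each of the 46 libraries (points) with mean and SD (bars), coloured by tissue; the upper panel gives CPM at the 17 starts of the 10 genes and the lower panel CPM per kb over their bodies. Dnmt1 start 1 and the 3 Dnmt3l starts stand above the others in all 3 tissues, and so does the body of Cxxc1 in the lower panel.

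Adenomas were compared with normal mucosa of Apc Min mice, with the 5 strains weighted equally, to ask whether the capture at these genes differed between adenoma and normal mucosa. Of the 10 bodies, 0 passed an adjusted p of 0.05 in edgeR's quasi-likelihood test, and 0 had an unadjusted p under 0.05. Over all bodies 0.02% passed, and 2.86% had an unadjusted p under 0.05. The 10 log2 differences ran from -0.06 ± 0.05 (SE) in Dnmt3l to 0.04 ± 0.07 in Uhrf1, with a median of 0.02 against 0.00 over all bodies. The Dnmt3l body, with the lowest p of the 10, held 0.552 to 0.771 CPM per kb in adenomas (median 0.613) and 0.560 to 0.733 in Apc Min normal mucosa (median 0.652), with overlap. At the 5′ ends, 11 of 17 starts, in 7 genes, had enough counts to be tested: 6 lay under the filter (Dnmt1 start 3, Uhrf1 start 2, Dnmt3a start 2, Tet1, Tet2 and Tdg). Of the 11, 0 passed in edgeR, 0 passed in DESeq2's Wald test, and 2 had an unadjusted p under 0.05 (Tet3 and Dnmt3l start 1). Over all 5′ ends 0.0761% passed and 4.69% had an unadjusted p under 0.05. Their median difference was -0.01 on the log2 scale against 0.00 over all 5′ ends tested.

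Tet3 had the lowest p among the 5′ ends. Its 5′ end held between 0.760 and 2.33 CPM in adenomas, with a median of 1.10 (n = 16). In normal mucosa of Apc Min mice it held between 0.384 and 1.15 CPM, with a median of 0.826 (n = 14). In wild type mucosa the range was 0.318 to 1.71 CPM and the median 0.967 (n = 16). The groups overlapped. The difference between adenoma and Apc Min normal mucosa was 0.53 ± 0.16 on the log2 scale with an unadjusted p of 0.00122 and an adjusted p of 0.426, so it did not pass.
The 2 highest adenoma values were from B6xPWD, where adenomas held 1.99, 1.36 and 2.33 CPM and normal mucosa 1.15, 0.669 and 0.608 CPM. There the groups did not overlap, and the difference was 1.21 ± 0.30 (unadjusted p = 0.00018, adjusted p = 0.308 over all 5′ ends). C5F1 adenomas held 1.01, 1.23 and 1.28 CPM against 0.615, 0.961 and 0.384 CPM, again without overlap. That difference was 0.80 ± 0.33 with an unadjusted p of 0.0189. In B6, C5 and C1_5F1 the differences were 0.24 ± 0.29, 0.24 ± 0.33 and 0.17 ± 0.47. The difference between the 5 strains in the adenoma effect on Tet3 had an unadjusted p of 0.114, and over all 5′ ends 0.0% passed that test.

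**Figure D3:**
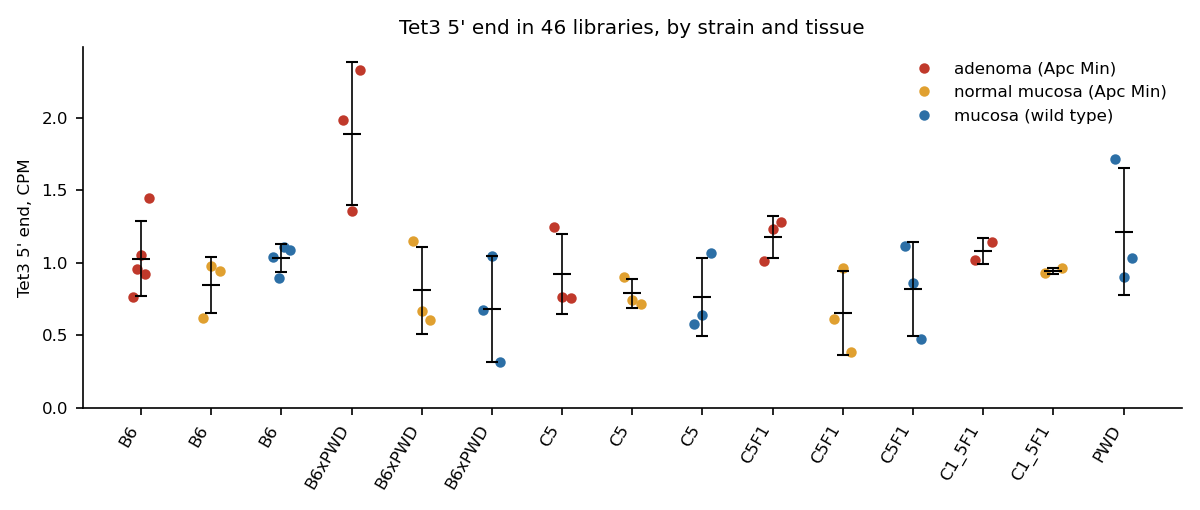
Captured DNA at the Tet3 5′ end in CPM in each of the 46 libraries (points) with the mean and SD of each group (bars), by strain and tissue. The 3 B6xPWD adenomas, at 1.36 to 2.33 CPM, lie above the 3 B6xPWD libraries of Apc Min normal mucosa, at 0.608 to 1.15 CPM; groups of the other strains lie closer together.

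Single windows gave the same count. Of 572 windows of the 10 genes with enough counts, 17 in 5′ ends and 555 in bodies, 0 passed in edgeR for adenoma against normal mucosa, against 0.000772% of all windows tested. An unadjusted p under 0.05 was reached by 27, or 4.72%, close to the 3.94% of all windows. The window with the lowest p was in the Tet3 5′ end, at chr6:83441001-83441250, the dense window named above. It ran from 0 to 0.907 CPM with a median of 0.310 in adenomas and from 0 to 0.378 CPM with a median of 0.135 in Apc Min normal mucosa. The difference was 1.24 ± 0.35 (unadjusted p = 0.000803).

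The comparison of normal mucosa between Apc Min and wild type mice, over the 4 strains that had both, asks whether the allele goes with a difference in tissue without adenoma. Of the 11 5′ ends, 0 passed in edgeR and 0 in DESeq2, and 0 had an unadjusted p under 0.05. Of the 10 bodies and of the 572 windows, 0 passed as well, with 0 bodies and 18 windows at an unadjusted p under 0.05. Over all 5′ ends, bodies and windows 0.0% passed, and 2.6%, 0.775% and 2.54% had an unadjusted p under 0.05. The body differences ran from -0.01 to 0.02 on the log2 scale, and the largest of the 10 standard errors was 0.10. The lowest p was again that of Dnmt3l, which held 0.531 to 0.759 CPM per kb in wild type mucosa (median 0.653).
The 5′ end of Cxxc1 had the lowest p. It held 0.236 to 0.956 CPM in Apc Min normal mucosa (median 0.536) and 0.242 to 0.720 CPM in wild type mucosa (median 0.451), with overlap, and the difference was 0.38 ± 0.20 (unadjusted p = 0.0547). Among the windows the lowest p was in the Dnmt3l body at chr10:78060501-78060750, with 0.331 to 0.785 CPM in Apc Min normal mucosa and 0.0570 to 0.475 CPM in wild type mucosa. That difference was 0.68 ± 0.22 with an unadjusted p of 0.00263.

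**Figure D4:**
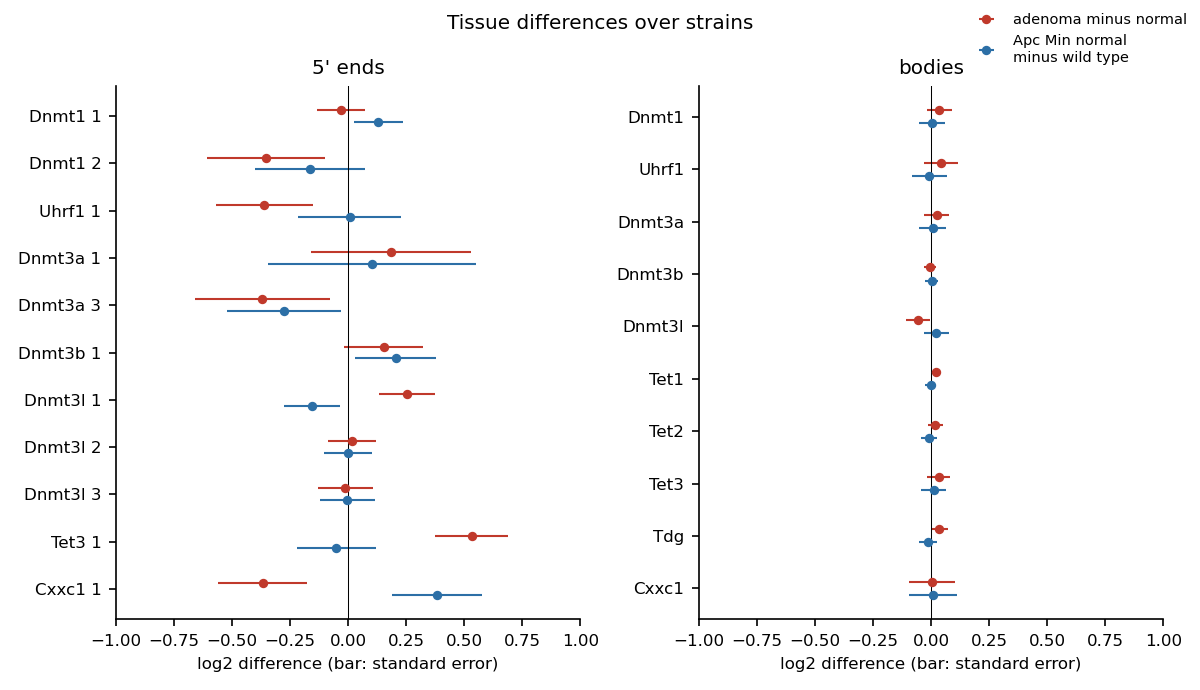
Log2 differences (points) with standard errors (bars) for adenoma minus Apc Min normal mucosa over 5 strains (red) and Apc Min normal minus wild type mucosa over 4 strains (blue), at the 11 tested 5′ ends (left) and the 10 bodies (right). The bodies lie within 0.06 of 0, and at the 5′ ends Tet3 is farthest from 0, at 0.53 for adenoma minus normal.

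Strain gave the differences that passed. In wild type mucosa PWD was compared with B6, which asks how far the genomes of these 2 strains differ in capture at the same genes. PWD reads were aligned to a B6-based build, and sequence differences, which change both CpG sites and the fit of reads, cannot be told apart here from differences in methylation. In wild type mucosa B6 shares only label number 16 with the other strains, and in Apc Min tissue it shares no number with them. Strain and label number thus cannot be fully told apart in the strain comparisons.
The body of Uhrf1 was the only one of the 10 to pass, against 8.53% of all bodies. B6 libraries held 1.11, 0.716, 0.918 and 0.986 CPM per kb, and PWD libraries held 1.46, 1.34 and 1.35 CPM per kb. The groups did not overlap, and PWD was 1.48-fold higher, a log2 difference of 0.57 ± 0.14 (edgeR adjusted p = 0.00621). Leaving out any 1 of the 7 libraries kept the call, with differences of 0.46 to 0.66. The other 9 bodies differed by -0.10 (Tet2) to 0.16 (Tet3) on the log2 scale, and only Tet1, at 0.09 ± 0.04, had an unadjusted p under 0.05 among them, against 19.7% of all bodies.
The F1 hybrid B6xPWD held 1.16, 1.22 and 1.12 CPM per kb at Uhrf1 in wild type mucosa. These lay above all 4 B6 and below all 3 PWD libraries, but the difference from B6, 0.32 ± 0.14, had an adjusted p of 0.548. In Apc Min tissue the F1 difference was 0.20 ± 0.10 (unadjusted p = 0.0565). C5 and C5F1, which carry B6 chromosome 17, differed from B6 by -0.05 ± 0.14 and -0.05 ± 0.14 in wild type mucosa.

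**Figure D5:**
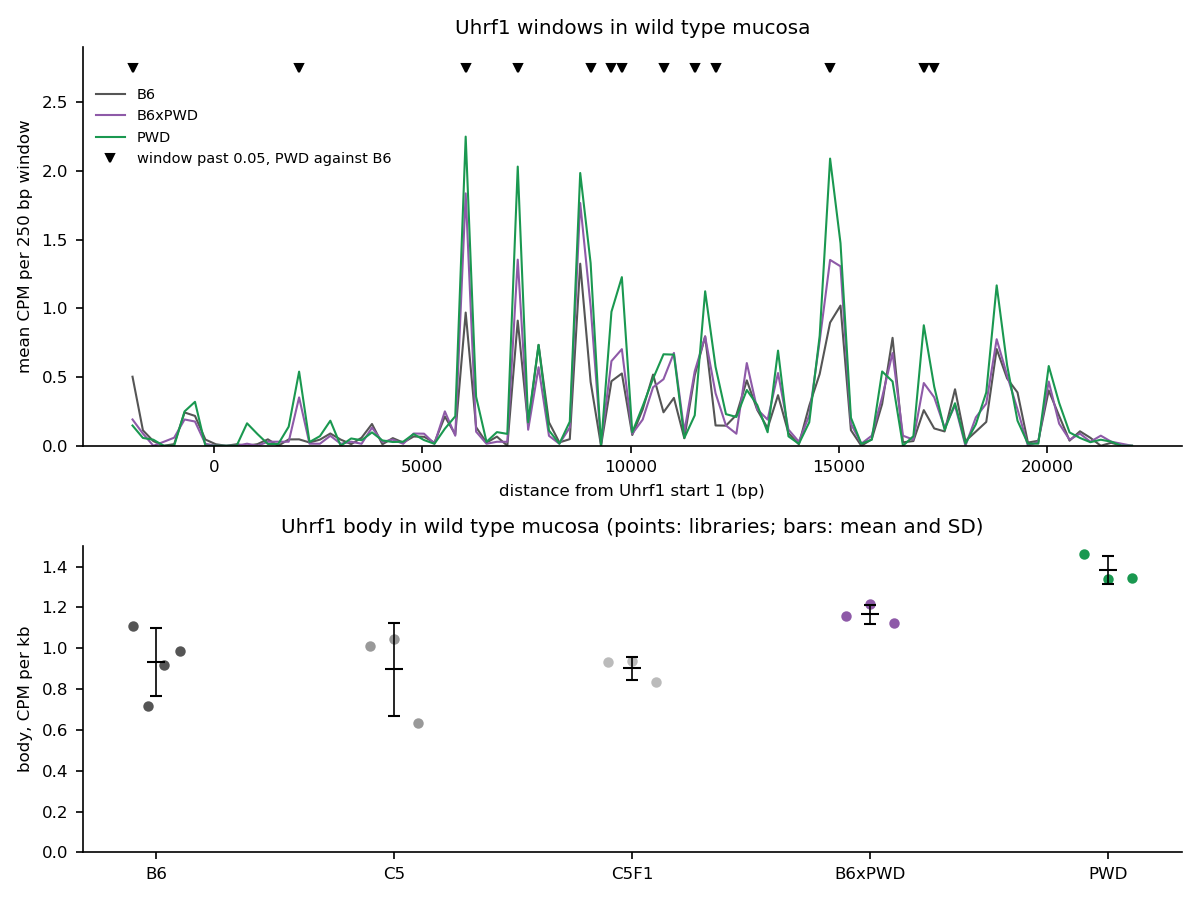
Upper panel: mean captured DNA in CPM per 250 bp window across Uhrf1 against distance from its start 1 in bp, in wild type mucosa of B6, B6xPWD and PWD, with triangles over the 13 windows past an adjusted p of 0.05 for PWD against B6. Lower panel: the Uhrf1 body in CPM per kb in each wild type library (points) with mean and SD (bars); the 3 PWD libraries, at 1.34 to 1.46, lie above all others.

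The higher Uhrf1 body in PWD came from many places in the gene. Of its 33 tested windows, 11 were higher and 2 lower in PWD. At chr17:56309251-56309500 B6 held 0.954, 0.760, 1.24 and 0.919 CPM and PWD 2.49, 2.03 and 2.23 CPM, a difference of 1.22 ± 0.23 (edgeR adjusted p = 3.05e-05). The F1 libraries, at 2.06, 1.95 and 1.50 CPM, were all above B6 there and passed as well (0.92 ± 0.23, adjusted p = 0.0241). At chr17:56312251-56312500 B6 held 0.390, 0.475, 0.248 and 0.744 CPM and PWD 1.36, 1.34 and 1.28 CPM, a difference of 1.49 ± 0.30 (adjusted p = 9.26e-05). Both windows lie in the gene, and no exon annotation was used here to place them. At chr17:56305251-56305500, closer to start 2, B6 libraries held 0, 0, 0.0994 and 0.0875 CPM and F1 libraries 0.224, 0.303 and 0.529 CPM. The F1 difference from B6 there was 2.78 ± 0.75 (adjusted p = 0.0376), and in Apc Min tissue it was 2.62 ± 0.55 (adjusted p = 0.00107).

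Over all 10 genes, 86 of 572 windows passed for PWD against B6, which is 15.0% against 19.7% of all windows tested, a share below that of the genome at large, so the count is not particular to these genes. Of the 86, 46 were higher and 40 lower in PWD, against 7.43% higher and 12.3% lower of all windows tested. Of the 86, 3 lay in a 5′ end, all in Dnmt3l, and 17 of the 572 tested windows lay in 5′ ends. The windows were divided unevenly between directions. Higher windows prevailed in Uhrf1 and in Tet1 (9 higher and 1 lower of 79), while in Dnmt3a 3 were higher and 12 lower of 104. The counts were 7 and 6 of 106 in Tet3, 5 and 2 of 31 in Dnmt3l, 4 and 5 of 98 in Dnmt1, and 3 and 6 of 46 in Tet2. They were 2 and 1 of 23 in Tdg, 1 and 4 of 30 in Dnmt3b, and 1 and 1 of 22 in Cxxc1.
The PWD contrast itself did not compare Apc Min tissue of B6xPWD and B6. The joint fit, however, took the spread of each window from all 46 libraries, so that tissue is not an independent check. B6xPWD and B6 share no label number in Apc Min tissue, so number and strain cannot be told apart there. There 83 of the 86 windows, 96.5%, differed in the same direction, against 95.5% of the 229989 windows called over the whole genome. In 19 of the 86 the difference in Apc Min tissue passed in the same direction, and in 0 it passed in the other. Of all windows tested in that tissue, whether or not they were called in PWD, 6.35% passed. That share is not a like base for the 86, and the share among all windows called in PWD was not computed. The 19 thus cannot be read as particular to these genes.

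At the 5′ ends, 2 genes passed for PWD against B6, 1 start each, against 11.4% of all 5′ ends tested. Dnmt3l start 2 held 2.60, 2.14, 3.12 and 2.82 CPM in B6 and 4.49, 3.51 and 4.34 CPM in PWD, without overlap. The difference was 0.62 ± 0.19 (edgeR adjusted p = 0.0220). The F1 libraries, at 3.43, 4.56 and 3.41 CPM, were above all B6 libraries too, but the difference of 0.51 ± 0.20 had an adjusted p of 0.208. Dnmt1 start 2 went the other way, with 0.284, 0.349, 0.353 and 0.605 CPM in B6 and 0.255, 0.180 and 0.0413 CPM in PWD, again without overlap. That difference was -1.29 ± 0.45 (adjusted p = 0.0480) and rests on 6 to 15 counts per B6 library and 1 to 7 per PWD library. Neither call is firm: Dnmt1 start 2 passed in 2 of 6 fits that each left out 1 library, and Dnmt3l start 2 in 3 of 7. Neither passed without B6 library 16_8, without PWD library 16_9, or without all libraries of label number 16, where the differences were 0.52 at Dnmt3l and -0.90 at Dnmt1.

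Named windows of the maintenance and de novo genes showed how sharp single strain differences were. In Dnmt1, chr9:20915251-20915500 held 1.43, 0.427, 1.14 and 1.27 CPM in B6 and 0.0388, 0.139 and 0.0428 CPM in PWD, a difference of -3.81 ± 0.56 (adjusted p = 2.41e-07). F1 mucosa lay between them at 0.583, 0.735 and 0.440 CPM, and F1 Apc Min tissue passed against B6 at -1.11 ± 0.27 (adjusted p = 0.00577). Another Dnmt1 window that passed, chr9:20908751-20909000, differed by -2.40 ± 0.59. Other windows of Dnmt1 were higher in PWD, as counted above.
Dnmt3a held a pair of opposite windows close to each other, in the gene upstream of the internal start. At chr12:3871751-3872000 B6 held 0.954, 0.665, 0.894 and 1.18 CPM while PWD held 0.0777, 0.0462 and 0 CPM. With only 3 counts in PWD, the ratio of B6 to PWD was 21.9, with an exact 95% interval of 7.24 to 109. At chr12:3872501-3872750 B6 held 0.173, 0.142, 0 and 0.175 CPM and PWD 1.16, 0.878 and 0.942 CPM, a difference of 2.93 ± 0.47 (adjusted p = 1.58e-06). The F1 was also higher than B6 at the second window, by 1.93 ± 0.54 in wild type mucosa (adjusted p = 0.0443) and by 2.29 ± 0.36 in Apc Min tissue (adjusted p = 6.55e-06).
In Dnmt3b, the flanking window chr2:153648001-153648250, upstream of the start, held 0.260, 0.285, 0.199 and 0.131 CPM in B6 and 0 in all 3 PWD libraries. B6 was 5.14-fold above a floor of 3 counts over the PWD group, which is a convention and not a minimum. The exact 95% interval of the ratio of B6 to PWD had a lower limit of 3.79. In its body chr2:153682251-153682500 differed by -2.06 ± 0.43 (adjusted p = 0.000164). Dnmt3l had a lower window at chr10:78052251-78052500 (-2.59 ± 0.51) and a higher one in its downstream flank at chr10:78063751-78064000 (2.08 ± 0.44). At the latter the F1 also passed against B6 in wild type mucosa, by 1.72 ± 0.46 (adjusted p = 0.0368).

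The eraser genes and Cxxc1 held such windows as well. Tet2 was nearly uncaptured in PWD at chr3:133540001-133540250, in the gene, where B6 held 1.04, 0.855, 0.547 and 0.569 CPM and PWD 0, 0 and 0.0428 CPM. With 1 count in PWD, the ratio of B6 to PWD was 53.6, with an exact 95% interval of 9.29 to 2149. The F1 held 0.494, 0.475 and 0.396 CPM there, between the parents, and F1 Apc Min tissue was below B6 by 0.92 on the log2 scale (-0.92 ± 0.24, adjusted p = 0.00966). Another Tet2 window that passed, chr3:133489001-133489250, differed by -2.70 ± 0.43. Other windows of Tet2 were higher in PWD, as counted above.
Tet1 was higher in PWD at chr10:62834001-62834250, with 0.260, 0.665, 0.447 and 0.263 CPM in B6 and 1.13, 1.66 and 1.41 CPM in PWD (1.77 ± 0.32, adjusted p = 2.06e-05). It was higher at chr10:62820501-62820750 as well, by 2.74 ± 0.51, where the F1 was higher by 2.09 ± 0.56 (adjusted p = 0.0350). Tet3 differed both ways: chr6:83370251-83370500 was higher by 2.96 ± 0.57 and chr6:83389751-83390000 lower (-2.36 ± 0.45). At the first of these the F1 was higher than B6 by 2.32 ± 0.62 (adjusted p = 0.0347). At chr6:83445251-83445500, in the gene upstream of the start, the F1 was higher than B6 by 2.66 ± 0.74 (adjusted p = 0.0469).
Tdg had a lower flanking window at chr10:82628251-82628500 (-1.57 ± 0.39) and a higher one in the gene at chr10:82633251-82633500 (1.13 ± 0.35). Cxxc1 had adjoining windows of opposite direction, with chr18:74219501-74219750 higher by 1.13 ± 0.38 and the CpG-dense chr18:74219751-74220000 lower (-0.73 ± 0.27, adjusted p = 0.0413). At the dense one B6 held 2.30, 1.80, 2.43 and 3.15 CPM and PWD 1.28, 1.48 and 1.63 CPM, without overlap.

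For the F1 hybrid B6xPWD against B6 in wild type mucosa, 0 of 11 5′ ends passed in edgeR and 0 in DESeq2, against 2.07% of all 5′ ends. Among the 11, 1 had an unadjusted p under 0.05, against 12.5% of all: Dnmt3l start 2, whose values stand above. Of the 10 bodies 0 passed by either test, against 0.76% of all bodies, and 2 had an unadjusted p under 0.05, Uhrf1 and Tet1, against 7.57% of all. The Tet1 body held 0.780, 0.759 and 0.786 CPM per kb in the F1 and 0.715, 0.716, 0.747 and 0.704 in B6, without overlap, and the difference was 0.11 ± 0.05 (adjusted p = 0.522). Of the 572 windows 7 passed, all higher in the F1, which is 1.22% against 1.36% of all windows in either direction and 0.971% higher. They are the windows of Uhrf1, Dnmt3a, Dnmt3l, Tet1 and Tet3 given above as passing in the F1. All 7 were higher in PWD as well, but both comparisons share the 4 B6 libraries. Fits that each left out 1 of the 7 libraries called 0 to 4 windows, with 0 of them without B6 library 16_8, and 2 passed without the libraries of label number 16.

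In the consomic strain C5, where the 10 genes lie on B6 chromosomes, 1 of 572 windows passed against B6 in wild type mucosa, against 0.719% of all windows. It lies in Tet1 at chr10:62822501-62822750. B6 held 1.04, 1.04, 0.944 and 0.788 CPM and C5 held 0.332, 0.0875 and 0.513 CPM, without overlap, a difference of -1.67 ± 0.37 (adjusted p = 0.00857). The count of windows that passed was 0 without C5 library 12_11, 7 without C5 library 16_1, 2 without B6 library 16_8 and 9 without the libraries of label number 16. C5F1, at 0.347, 0.418 and 0.460 CPM, was also below all B6 libraries, and the difference of -1.22 ± 0.35 was the lowest p of the 572 windows in that comparison (unadjusted p = 0.000915, adjusted p = 0.586). In Apc Min tissue the same window differed by -0.43 ± 0.25 in C5 and -0.20 ± 0.25 in C5F1, and neither passed, against 1.43% and 0.442% of all windows.
At the 5′ ends and bodies 0 genes passed for C5 in edgeR or in DESeq2, against 0.381% and 0.51% of all. The lowest p at the 5′ ends, 1 of 11 under 0.05 against 11.0% of all, was Dnmt1 start 2, with 0.134, 0.201 and 0.315 CPM in C5 (-0.95 ± 0.44, adjusted p = 0.415). The lowest p of the bodies, 1 of 10 under 0.05 against 11.3% of all, was Dnmt3b, with 0.542, 0.528 and 0.500 CPM per kb in C5 and 0.590, 0.555, 0.527 and 0.609 in B6 (-0.12 ± 0.05, adjusted p = 0.356). In Apc Min tissue, Dnmt3b was lower than B6 in C5F1 (-0.17 ± 0.04, adjusted p = 0.0248, against 0.63% of all bodies) and had -0.13 ± 0.04 in C5 (adjusted p = 0.0597, against 1.76% of all bodies). The B6 Apc Min libraries held 0.545 to 0.615 CPM per kb there and the C5F1 libraries 0.513 to 0.575, so the groups overlapped. In that tissue B6 shares no label number with C5 or C5F1, so number and strain cannot be told apart. The Dnmt3b difference from B6 in C5F1 wild type mucosa was 0.04 ± 0.05. For C5F1 against B6 in wild type mucosa, 0 of 11 5′ ends, 0 of 10 bodies and 0 of 572 windows passed, against 0.0507%, 0.065% and 0.028% of all. By DESeq2 0 of the 5′ ends and bodies passed, and 0 5′ ends, 0 bodies and 14 windows had an unadjusted p under 0.05, against 4.04%, 3.84% and 4.53% of all. Of the 5′ ends Uhrf1 start 1 had the lowest p, with 0.479, 0.465 and 0.239 CPM in C5F1 and 0.662, 0.399, 0.605 and 0.525 CPM in B6 (-0.47 ± 0.40). Of the bodies it was Tet2, with 0.470, 0.496 and 0.514 CPM per kb in C5F1 and 0.490, 0.554, 0.528 and 0.473 in B6 (-0.05 ± 0.07). Both pairs of groups overlapped.

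Genes that work with this machinery were grouped in 5 lists of 60 genes in all: partners of the writers, methyl-CpG readers, demethylation and repair, CXXC and SET1 complex genes, and methyl donor and cofactor enzymes. All 60 bodies were tested, and 30 of the genes had a testable 5′ end. Between adenoma and Apc Min normal mucosa 0 passed at either, against 0.0761% of all 5′ ends and 0.02% of all bodies. An unadjusted p under 0.05 was reached by 2 of the 30 genes at the 5′ ends and 2 of the 60 at the bodies. Of all 5′ ends and bodies, 4.69% and 2.86% reached it. The lowest p of each list at the 5′ ends in adenomas, in the order above, was that of Zfp57 (0.27 ± 0.18), Zbtb38 (0.32 ± 0.11), Smug1 (-0.35 ± 0.22), Kdm2a (-0.23 ± 0.20) and Gnmt (0.29 ± 0.13). Over the bodies it was that of Pcna (-0.17 ± 0.15), Zbtb38 (0.02 ± 0.04), Neil2 (-0.10 ± 0.05), Kmt2a (0.05 ± 0.02) and Shmt1 (0.10 ± 0.05). Between Apc Min normal and wild type mucosa 0 passed, with 0 and 1 under 0.05, against 2.6% of all 5′ ends and 0.775% of all bodies. There the lowest p at the 5′ ends was that of Dppa3, Zbtb38, Gadd45a, Cxxc4 and Shmt2, with differences from -0.38 ± 0.21 (Gadd45a) to 0.26 ± 0.15 (Shmt2). Over the bodies it was that of Usp7, Mbd2, Gadd45a, Ash2l and Ahcy, with differences from -0.03 ± 0.04 (Mbd2) to 0.17 ± 0.08 (Gadd45a). In PWD against B6, genes of these lists differed at the 5′ ends in both directions, where 5.35% of all 5′ ends were higher and 6.05% lower.
Mat2a, which makes the methyl donor S-adenosylmethionine, had the largest of these differences, 4.43 ± 0.42 (adjusted p = 6.39e-13), and it was higher in the F1 too, by 2.97 (adjusted p = 5.68e-05). Uhrf2, the paralog of Uhrf1, was the other higher one, at 1.12 (adjusted p = 0.0463). Lower were Ash2l, a subunit shared by SET1 complexes (-1.12, adjusted p = 0.000296), and Hells, a chromatin remodeller needed for DNA methylation (-0.99, adjusted p = 0.0352). Over the bodies Mat2a was higher, and Dppa3, Usp7, Gadd45a, Neil2 and Dpy30 were lower. Of all bodies 2.76% were higher and 5.77% lower. Dppa3, which limits UHRF1 on chromatin, differed by -0.70. Dpy30 differed by -0.33 (adjusted p = 0.0012) and Gadd45a by -0.50 (adjusted p = 0.0456). The methyl-CpG readers had 0 genes past the threshold, with Mbd4 lowest in p at the 5′ ends (0.51 ± 0.56) and Mbd3 over the bodies (0.46 ± 0.28).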

How the data were processed

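Intestinal DNA was enriched with an antibody to 5-methylcytosine and sequenced (MeDIP-seq). The deposited table gives whole-number read counts for 250 bp windows and, per the file headers, a CpG density score of each window, with no scale stated in what was used here. The submitters' processing notes name the aligner BWA and the build mm10. Of 47 MeDIP samples in the labels, 46 had a column and were used, and 1 C5F1 wild type sample and 6 of 7 input samples were not analysed here. Sex chromosomes were left out. The labels disagree on 1 library, B6xPWD 11_6, which is Apc Min normal mucosa as MeDIP and wild type as input. It was kept as the MeDIP label has it.

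Window counts were summed over 5′ ends (1000 bp before to 500 bp after each RefSeq start, or after the end with the denser CpG score where no start was listed) and over bodies with 2000 bp flanks. Tests were edgeR 4.0.16 quasi-likelihood F tests in R 4.3.3, with 1 coefficient per group of strain and tissue, TMM scaling, a minimum count of 10 in filterByExpr, and Benjamini-Hochberg adjustment over all 15767 5′ ends, 19997 bodies or 1166299 windows tested, with a threshold of 0.05. The scripts were tested on simulated counts. Levels are CPM of TMM-scaled library size. DESeq2 1.42.0, other scalings and filters, a replicate block, other definitions of the 5′ end and leaving out each library were alternatives. The strain comparisons in Apc Min tissue and the fits without the libraries of label number 16 were added after seeing the data.

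The 10 genes and the lists were chosen with earlier results of these data known. All 10 genes are given in each comparison. Library values are given for genes that passed and, where none passed, for the one with the lowest p. Of the windows, the 2 with the lowest p that passed in each gene are named, or the 1 with the lowest p where none passed, and the window with the highest mean at the 5′ end and in the body of a gene. Of the other lists, genes that passed in PWD against B6 and the gene with the lowest p of each list in the tissue comparisons and in PWD against B6 are named, except for results that are not reported here.

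Whether same label numbers pair libraries was checked by correlating deviations from group means. Pairing was taken only where every same-number pair correlated over 0.1, which was not met, so libraries were treated as sharing only a number. Depth was 8358806 to 27842607 counts per MeDIP library, and a window at 1 CPM thus rests on few counts. Intervals and floors cover counting error only.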

Additional observations from a re-analysis of the deposited data

Results flagged for a closer look

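In each group of 4 or 5 libraries, the highest or lowest library was checked for standing apart from the rest by Dixon's criterion, at the 5′ ends and bodies of the 10 genes. Only B6 wild type mucosa and B6 adenomas had that many libraries. Of 54 combinations of a 5′ end or body with one of these groups, 4 held such a library. Chance gives about 1 in 20 for each alone. The combinations reuse the same libraries and some starts overlap, so they are not independent and the count is only a description. In B6 wild type mucosa, library 10_1 stood apart 3 times: with 2.18 CPM at Dnmt1 start 1, with 0.0946 CPM at the Tet1 5′ end, and with 0.774 CPM per kb over the Tdg body. In B6 adenomas, library 9_3A stood apart with 0.223 CPM at Uhrf1 start 2. None of these 4 values belongs to a difference that passed in the comparisons above, and the fits without library 10_1 are among those that left out 1 library each.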

How the results depend on the processing

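The Uhrf1 body in PWD against B6 passed under every setting run, with log2 differences of 0.46 to 0.89 (0.89 with a replicate block on the first label number). The 0 calls at 5′ ends and bodies for Apc Min normal against wild type mucosa and for C5F1 held under every setting run, and so did the 0 windows for both tissue comparisons. With the replicate block, 1 5′ end passed in adenomas (Tet3, 0.60, adjusted p = 0.0486), and at the 5′ ends in PWD 1 passed. Over the bodies, 4 passed in PWD under the block (Uhrf1, Tet3, Dnmt1 and Tet2) and 1 in B6xPWD (Uhrf1). Of the windows, the block called 0 in B6xPWD, 0 in C5 and 58 in PWD, of which 37 were among the 86. The shares of all 5′ ends, bodies and windows that passed under the block, or under the other settings below, are not given here. Calls under these settings thus cannot be read as particular to the genes described here. Correlations of deviations from group means were over 0.1 in 52.8% of 144 same-number pairs and 12.0% of 840 other pairs at the 5′ ends, and in 68.8% and 28.3% of them over the bodies. The best match of a library had its own number for 25 of 46 libraries at the 5′ ends and 22 of 46 over the bodies, a hint from the data and not from the design.

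At the 5′ ends in PWD, 1 passed with DESeq2 size factors, 1 with only the groups compared, 1 with DESeq2's Wald test, and 0 at the gene end with the higher CpG density, where 1 (Tet3) passed in B6xPWD. With 2000 bp either side of the start, 3 passed in PWD (Dnmt3l, Tdg and Uhrf1), Dnmt1 start 2 not among them. Without the libraries of label number 16, 0 5′ ends passed in PWD and 1 body (Cxxc1) in C5, and 2 windows in B6xPWD and 9 in C5. With a minimum count of 3, 3 windows passed in B6xPWD and 100 of 1571 in PWD. Leaving out 1 library at a time gave 0 to 1 5′ ends in PWD, 0 to 4 windows in B6xPWD, 0 to 7 in C5 and 64 to 83 in PWD. For the tissue comparisons, windows were refitted in this way only without B6xPWD library 11_6, and for C5F1 not at all.

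The sign turned for the Cxxc1 5′ end in Apc Min normal against wild type mucosa with 2000 bp either side (-0.022). It turned for the Dnmt3l body in the same comparison with the block (-0.0059), without the libraries of number 16 (-0.0031) and without C5 wild type library 16_1 (-0.0072), with -0.0072 to 0.054 over the fits that left out 1 library each. None of these differences passed. The cause of these changes was not tested. Low counts kept 6 of 17 5′ ends out of the tests, and 572 of 2291 windows were tested. Differences at the rest were not detectable at these counts.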
